A study of Mus musculus with 8 samples.

Results

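The genes described here are the MAP kinase phosphatases Dusp1, Dusp2, Dusp4, Dusp5, Dusp6 and Dusp16, and the Sprouty and Spred genes Spry1, Spry2, Spred1 and Spred2, chosen by name among the non-control spots of the arrays. Of these 10 genes, 9 had spots, with 17 probes among the 41174 on the array. Dusp5 had no spot under its name, and its expression was not analysed here. All 17 probes passed the filter on dim signal and were among the 21274 probes tested.

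RAW264.7, a macrophage-like line of BALB/c mouse origin, was exposed at 100 bacteria per cell to 1 of 2 bacteria, Bacillus clausii MTCC-8326 or Lactobacillus acidophilus MTCC-10307, for 1, 2, 4 or 6 h. On each of 8 two-colour arrays, RNA of treated cells (Cy5) was set against RNA of untreated cells of the same time (Cy3), with 1 array per bacterium and time. Each array received an equal mix of RNA from 3 cultures, so no array has a biological replicate. The labels do not say whether the untreated RNA was shared by the arrays of both bacteria. The culture medium held no antibiotic, per the labels. Because no array exchanged the dyes, a constant dye effect cannot be told apart from treatment in any mean ratio, but it cancels in a difference between times or between bacteria. Each bacterium has its own slide and each time its own place on the slide, and these cannot be told apart either.

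MAP kinases (ERK, JNK and p38) carry signals from receptors, including the Toll-like receptors with which macrophages sense bacteria, to transcription. The Dusp genes of this set encode dual-specificity phosphatases that remove the activating phosphates from MAP kinases, and several of them are themselves transcribed in answer to MAP kinase activity, which closes a feedback loop. Sprouty and Spred proteins act upstream: they dampen the step from receptor tyrosine kinases through Ras and Raf to ERK, and Spred proteins bring the Ras-inactivating protein neurofibromin to the membrane.

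Macrophage identity was checked on untreated RNA: 11 of 12 macrophage markers were above background on all 8 arrays, as were 1 of 5 T cell and 1 of 4 B cell markers and none of the 5 fibroblast, 4 epithelial and 2 erythroid markers. Untreated RNA gave a signal above background on 42.2% to 47.4% of probes per array and treated RNA on 39.6% to 51.5%, and no spot was saturated. For the members, 12 of the 17 probes were above background in both channels on all 8 arrays, and each of the 9 genes had such a probe.

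The promoter of Dusp1 is shown because Dusp1 rose at 1 and 2 h, as given further on. The 250 bases before its annotated start, from RefSeq on GRCm38.p6 (minus strand, chr17:26508473-26508722), held the full cyclic AMP response element TGACGTCA, which 1.55% of 32851 mouse promoter windows of the same length hold on either strand. Capitals mark every match to TGACG or its reverse complement, so the full element appears as 1 run of overlapping matches, 143 bases before the start.
Dusp1 promoter: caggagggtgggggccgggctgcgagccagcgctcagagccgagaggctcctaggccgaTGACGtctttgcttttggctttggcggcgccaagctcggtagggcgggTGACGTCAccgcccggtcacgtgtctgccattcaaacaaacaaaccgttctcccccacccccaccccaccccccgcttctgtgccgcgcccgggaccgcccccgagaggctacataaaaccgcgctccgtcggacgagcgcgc
The shorter TGACG, in 17.8% of all windows, was also found once in each of the windows of Dusp16 (minus strand, chr6:134792674-134792718) and Spred2 (plus strand, chr11:19924371-19924415).
Dusp16 promoter stretch: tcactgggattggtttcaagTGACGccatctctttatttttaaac
Spred2 promoter stretch: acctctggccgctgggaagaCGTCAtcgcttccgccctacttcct
The windows of Dusp2, Dusp6, Spry1, Spry2 and Spred1 held neither form. The 8 measured genes with a window (all but Dusp4) held no match to the AP-1 site TGANTCA (6.75% of all windows), the ETS core CCGGAA (12% of all windows) or the CArG box (1.47%), each searched on both strands. The window of Dusp5, the member without a spot, held 1 match to TGACG or its reverse complement, 55 bases before the start. It also held 2 CArG boxes, 82 and 72 bases before the start. A match is only a description of the letters in a window.

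Probes of Dusp2, Spred1 and Spred2 are shown because the probes of each of these genes gave different ratios. In the first, from mm9 chr2:127162582-127162641, capitals mark GTGAGT, the form of a splice donor, 7 bases before the end of the probe.
Dusp2 A_51_P306031: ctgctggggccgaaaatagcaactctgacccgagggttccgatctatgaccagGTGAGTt
The pair for Spred1 (chr2:117003056-117003115 and chr2:116997721-116997780 in mm9) each had 1 reading frame without a stop codon, as did the Spred2 probe (chr11:19922350-19922409 in mm9). The other Spred2 probe also had 1 such frame. Probes of Dusp1, Dusp6 and Spry1 had such frames too, and whether any probe lies in coding sequence was not looked up. The printed Spred1 and Spred2 probes carry no capitals, since a search for GTGAGT preceded by AG found no match in them.
Spred1 A_51_P422996: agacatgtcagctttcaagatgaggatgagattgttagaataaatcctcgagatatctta
Spred1 A_52_P637689: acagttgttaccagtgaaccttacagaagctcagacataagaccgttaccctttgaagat
Spred2 A_52_P452697: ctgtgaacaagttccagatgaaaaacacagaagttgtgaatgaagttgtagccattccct

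Across the set, the responses were small and differed in timing. The RNA of Dusp1 was higher in treated cells at 1 and 2 h and near the untreated level afterwards. Spry1 was higher from 2 h on, Dusp2 was highest at 6 h, and Dusp4 was lowest at 6 h. Of the 17 probes, only Dusp4 A_51_P518051 passed 2-fold on any array by the recomputed ratios, against 1.56% of all tested probes. The scanner's own ratios, which add no offset, also passed 2-fold for Dusp1, with a log2 ratio of 1.1 at 1 h of B. clausii. They did so for Spry1, with up to 1.26 at 4 h of L. acidophilus. Dim Dusp16 probes did so too, with scanner errors of 0.38 or more. Values of single arrays below are log2 ratios of treated over untreated RNA. Mean values are followed by the standard error (SE) of a limma fit of bacterium and time over all 8 arrays, and "called" means a Benjamini-Hochberg adjusted p under 0.05 over all tested probes. That error rests on how far the difference between the bacteria varies from time to time, not on replicate cultures. The fit also draws it toward a spread common to all tested probes, with a weight of 6.27 degrees of freedom against 3 of the probe itself.

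**Figure D1:**
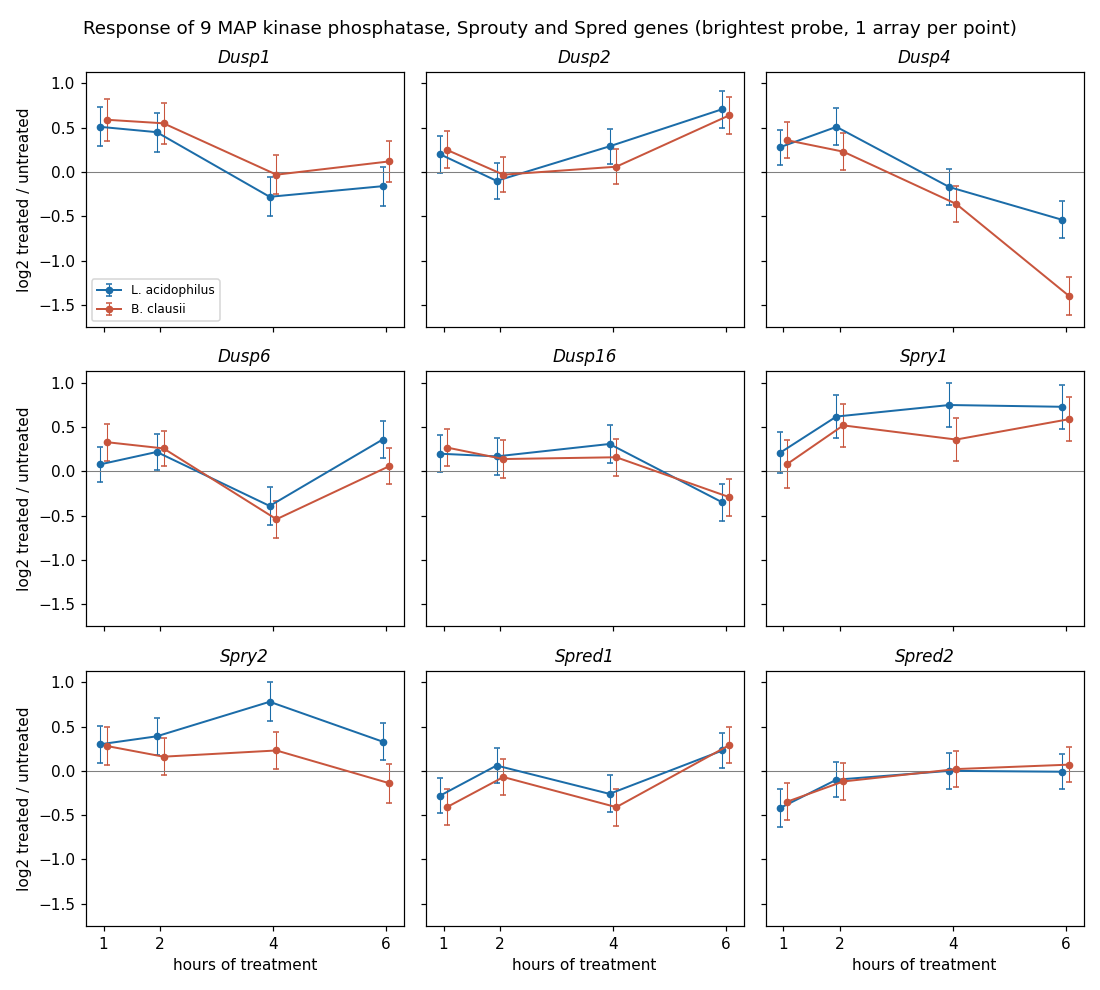
Log2 ratio of treated over untreated RNA (vertical axis) against hours of treatment (horizontal axis) for the brightest probe of each of the 9 genes, with 1 array per point and bars giving the scanner software's own error of its ratio for that spot. Dusp1 starts at 0.51 and 0.59 and ends at -0.16 and 0.12, Spry1 stays above 0 on all 8 arrays, and Dusp4 reaches -1.40 with B. clausii at 6 h.

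The question put by the series is the kinetics of expression after treatment, and the first comparison is between early (1 and 2 h) and late (4 and 6 h) arrays. In that contrast 11 of the 17 probes, of 8 genes, were called by limma. Of these, 3 probes were higher late (Dusp2, Spry1 and Spred2, 1 probe each), against 11.7% of all tested probes. The other 8 were lower late (Dusp1, Dusp6, and a pair each for Dusp4, Dusp16 and Spred1), against 11.3% of all tested probes. The median of the 17 differences was -0.15, and that of all tested probes 0.005. The count depended on the processing: it was 2 with the processed signals and 3 with local backgrounds as deposited. It was also 5 without the L. acidophilus 2 h array, and 5, 4 and 6 without the B. clausii arrays of 1, 2 and 4 h. The share of all tested probes called, 23.1% before these changes, fell in these settings as well. In the same order it was 7.01%, 6.92%, 11.1%, 13.6%, 13.3% and 12.2%.

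Dusp1 encodes an inducible nuclear phosphatase that acts mainly on p38 and JNK and limits cytokine production by macrophages. With L. acidophilus its log2 ratio was 0.51 at 1 h, 0.45 at 2 h, -0.28 at 4 h and -0.16 at 6 h. The B. clausii arrays gave 0.59, 0.55, -0.03 and 0.12 at the same times. All 4 early arrays lay above all 4 late arrays, with no overlap. The share of all tested probes that separate in this way is not given here. The mean was 0.55 ± 0.06 (SE) at 1 h, a 1.47-fold rise (limma adjusted p = 0.000392), and 0.50 ± 0.06 at 2 h (adjusted p = 0.00105). At 4 h and 6 h the means, -0.15 ± 0.06 and -0.02 ± 0.06, did not pass the threshold. The late minus early difference was -0.61 ± 0.06 (adjusted p = 0.000424). The untreated channel of this probe moved by at most 0.24 log2 units over the 4 arrays of a slide, while the treated channel moved by up to 0.87. Without the L. acidophilus 2 h array the 2 h mean was 0.45 (adjusted p = 0.0599), and with local backgrounds as deposited no Dusp1 call was kept: the 1 h mean was 0.28, the 2 h mean 0.26 and the difference over time -0.35 (adjusted p = 0.256, 0.328 and 0.106). Relative to all probes, the 1 h value was 0.48 with median centring in place of loess, where the value as fitted, 0.21, was not called (adjusted p = 0.0796).

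Dusp2 encodes a nuclear phosphatase that is abundant in activated immune cells. Its bright probe A_52_P399934 (mm9 chr2:127163930-127163989) gave 0.20, -0.10, 0.29 and 0.71 at 1, 2, 4 and 6 h of L. acidophilus. The B. clausii values were 0.25, -0.03, 0.06 and 0.64. Both 6 h arrays were higher than the other 6. The 6 h mean was 0.67 ± 0.07 (adjusted p = 0.00023, limma), and this call was kept under every alternative run, with values from 0.51 to 0.69. The late minus early difference of 0.35 ± 0.07 (adjusted p = 0.00743) rested on 6 h: without both 6 h arrays it was 0.10 (adjusted p = 0.513), and without both 2 h arrays 0.20 (adjusted p = 0.145). With the processed signals this difference was 0.21 (limma adjusted p = 0.16). The 1 h mean, 0.23 ± 0.07 (adjusted p = 0.0296), turned to -0.26 with median centring, which is 0 relative to the median of all probes there, and was not called without either 1 h array (0.29 and 0.16).

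The other Dusp2 probe, A_51_P306031, which ends in the splice-donor form printed above, did not follow the bright probe. It gave -0.16, -0.49, -0.28 and -0.06 on the L. acidophilus arrays and 0.06, -0.36, -0.33 and -0.02 on those of B. clausii. It was lowest at 2 h, with a mean of -0.43 ± 0.06 (limma adjusted p = 0.00231), and was also called lower at 4 h, at -0.31 ± 0.06 (adjusted p = 0.00907). At 6 h, when the bright probe was highest, its mean was -0.04 ± 0.06 (adjusted p = 0.645). The probes had the same sign on 3 of 8 arrays and differed by 0.46 log2 units on average (SD 0.19 over the 8 arrays). What RNA each probe measures was not tested.

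**Figure D2:**
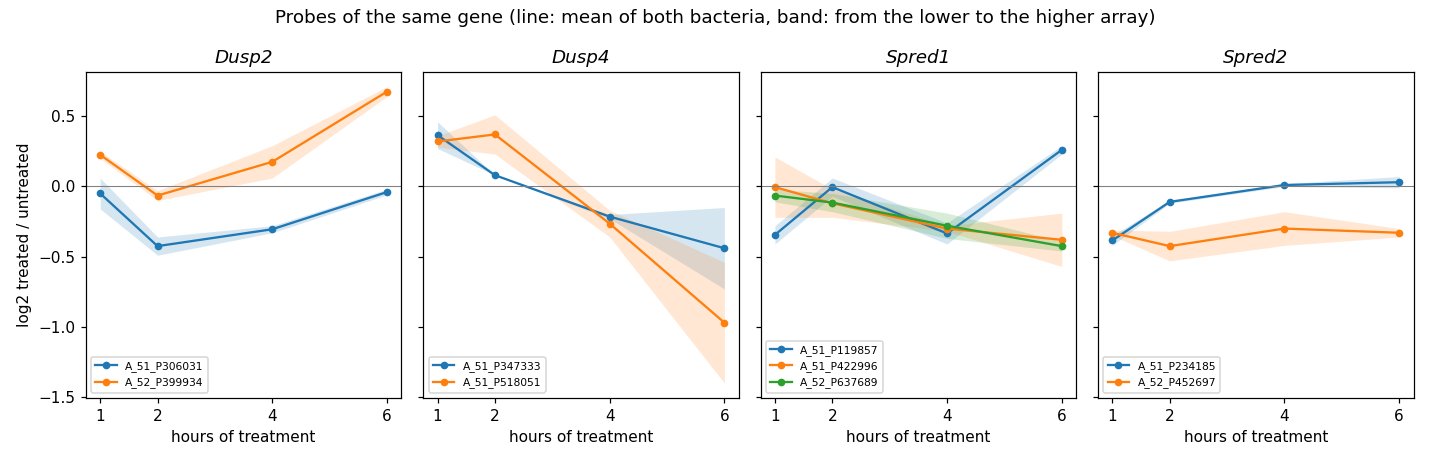
Mean log2 ratio of both bacteria (line with points) at each time in hours for every probe of Dusp2, Dusp4, Spred1 and Spred2, with a band from the lower to the higher of the 2 arrays of that time. The Dusp2 probes run apart at all 4 times, both Dusp4 probes go down, and Spred1 A_51_P119857 rises at 6 h while the other 2 Spred1 probes are lowest there.

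Dusp4 encodes a nuclear phosphatase of ERK and JNK that is itself induced by ERK. Its bright probe A_51_P518051 (mm9 chr8:35882045-35882104) gave 0.28, 0.51, -0.17 and -0.54 with L. acidophilus. With B. clausii it gave 0.36, 0.23, -0.36 and -1.40. All 4 early values were above 0 and all 4 late values below it, but the scanner's own ratio at 4 h of L. acidophilus was 0.13. The 6 h mean was -0.97 ± 0.13 (limma adjusted p = 0.00063), and the late minus early difference -0.97 ± 0.13 (adjusted p = 0.00128) was the largest of the set. The 1 h and 2 h means, 0.32 ± 0.13 and 0.37 ± 0.13, did not pass (adjusted p = 0.0749 and 0.0586). The 6 h fall was kept under every alternative run, from -1.34 to -0.61, whereas the difference over time was -0.68 (adjusted p = 0.0527) with the scanner's processed signals.

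The second Dusp4 probe, A_51_P347333, had the same sign as the first on all 8 arrays. By the scanner's own ratios the signs differed at 6 h of L. acidophilus, at 0.05 against -0.34. At 4 h of L. acidophilus the scanner gave 0.10 for the second probe. The values after loess follow. The second probe gave 0.27, 0.08, -0.20 and -0.15 on the L. acidophilus arrays and 0.46, 0.08, -0.23 and -0.73 on those of B. clausii. Its 6 h mean was -0.44 ± 0.11 (limma adjusted p = 0.012), its 1 h mean 0.36 ± 0.11 (adjusted p = 0.0296) and its late minus early difference -0.55 ± 0.11 (adjusted p = 0.00775). Relative to the median of all probes, its 1 h value was 0.10 with median centring, and the adjusted p for -0.17, the value as fitted, was 0.176.

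The level of Dusp4 also went down with time in untreated cells, which no other member's brightest probe did to that extent. On the L. acidophilus slide the untreated log2 signal of A_51_P518051 was 11.92, 11.70, 11.67 and 10.84 at 1, 2, 4 and 6 h, and on the B. clausii slide it was 11.67, 11.60, 11.53 and 10.75. The treated signal went from 12.21 to 10.30 and from 12.03 to 9.35 between 1 and 6 h. From 1 to 6 h the untreated channel therefore moved by -1.08 and -0.92, where the median of all tested probes moved by -0.03 and 0.03 (SD 0.413 and 0.358 over probes), and the treated channel by -1.91 and -2.68. The second probe moved by -0.86 and -0.98 in untreated cells. These levels have 1 array per time and no test, and the 6 h arrays share a position on their slides, so that time and position cannot be told apart in a single channel.

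**Figure D3:**
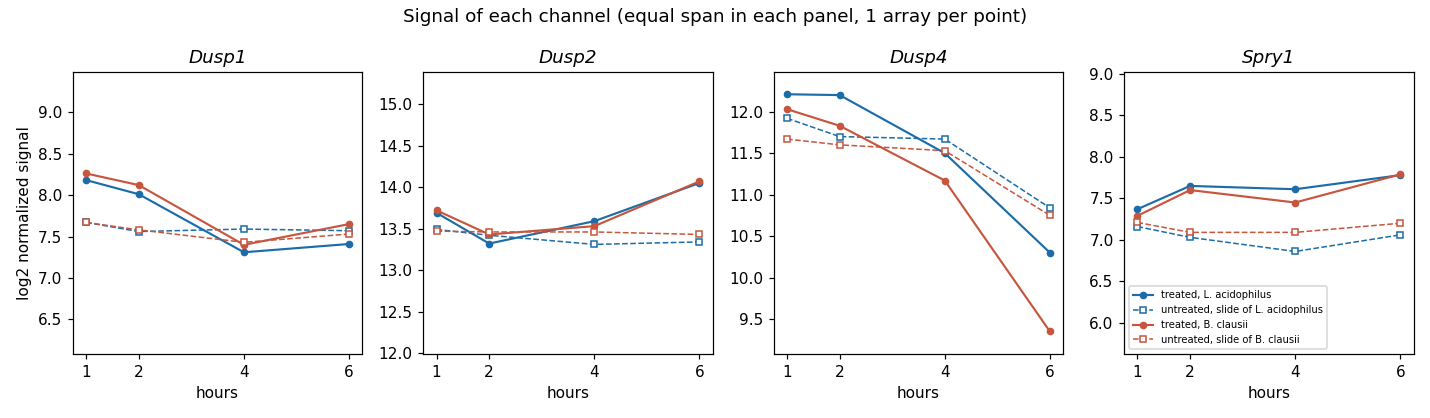
Normalized log2 signal (vertical axis, of equal span in each panel) against hours for the brightest probe of Dusp1, Dusp2, Dusp4 and Spry1, with filled circles for treated and open squares for untreated RNA, 1 array per point. Untreated Dusp4 goes from 11.92 to 10.84 and from 11.67 to 10.75 between 1 and 6 h, whereas untreated Dusp1, Dusp2 and Spry1 each move by less than 0.3.

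Dusp6 encodes a cytoplasmic phosphatase specific for ERK and, in many cells, a transcript that reports ERK activity. Its probe (mm9 chr10:98729985-98730044) gave 0.08, 0.22, -0.39 and 0.36 on the L. acidophilus arrays and 0.33, 0.26, -0.54 and 0.06 on those of B. clausii. Both 4 h arrays lay below the other 6. The 4 h mean was -0.47 ± 0.09 (adjusted p = 0.00547, limma), while the means at 1, 2 and 6 h, 0.20, 0.24 and 0.21 with an SE of 0.09 each, did not pass. The late minus early difference of -0.35 ± 0.09 (adjusted p = 0.0198) rested on 4 h and was -0.01 (adjusted p = 0.956) without that time. It was not called without the L. acidophilus 2 h array (-0.38) or any 1 of the B. clausii arrays (-0.32 to -0.25). The call was also lost with the processed signals (-0.44), an offset of 0 (-0.36), local backgrounds as deposited (-0.31) and median centring (-0.17). Each time has 2 arrays: without the L. acidophilus one the 4 h mean was -0.54 (adjusted p = 0.0663), and without the B. clausii one -0.39 (adjusted p = 0.155).

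Dusp16 encodes a phosphatase that acts on JNK and p38. Its bright probe A_51_P242634 gave 0.20, 0.17, 0.31 and -0.35 on the L. acidophilus arrays and 0.27, 0.14, 0.16 and -0.29 on those of B. clausii. Only the 6 h arrays were below 0, with a mean of -0.32 ± 0.06 (limma adjusted p = 0.00399). Without the L. acidophilus 6 h array this was -0.27 (adjusted p = 0.058). The means of 0.24 ± 0.06 at 1 h and 0.23 ± 0.06 at 4 h were called (adjusted p = 0.0185 and 0.0238) but became -0.24 and 0.03 with median centring, or 0.03 and 0.13 relative to all probes. Neither was called with only 1 of its 2 arrays (0.18 and 0.29 at 1 h, 0.14 and 0.33 at 4 h). The late minus early difference, -0.24 ± 0.06 (adjusted p = 0.0235), was 0.04 without 6 h, and was not called without the 2 or 6 h array of L. acidophilus or the 1, 2 or 4 h array of B. clausii (-0.25 to -0.19). This call was also lost with the processed signals (-0.32), an offset of 0 (-0.27), local backgrounds as deposited (-0.19) and median centring (-0.07). The dim probe A_52_P374825, above background in 1 untreated and 3 treated channels of 8, was called higher at 1 h (limma adjusted p = 0.000981). This probe would not have passed the filter on untreated signal alone, and both treated 1 h channels helped it pass. Its calls as higher at 1 h and lower late are therefore not independent of the filter. Its untreated signal was not well above background on either 1 h array, so that treated RNA was at least 1.37-fold higher with L. acidophilus and at least 1.41-fold higher with B. clausii, taking the lowest signal of a detected probe in place of a weaker untreated one. The dimmest Dusp16 probe, A_52_P492081, was not called in any contrast.

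Spry1 was the most persistent of the higher members. Its probe (mm9 chr3:37543194-37543253) gave 0.21, 0.62, 0.75 and 0.73 on the L. acidophilus arrays and 0.08, 0.52, 0.36 and 0.59 on those of B. clausii, above 0 on all 8 arrays. Both 1 h arrays were below the other 6. The mean was 0.14 ± 0.07 at 1 h (limma adjusted p = 0.133), 0.57 ± 0.07 at 2 h (adjusted p = 0.00085), 0.56 ± 0.07 at 4 h (adjusted p = 0.000816) and 0.66 ± 0.07 at 6 h (adjusted p = 0.000239). The mean over all times was 0.58 ± 0.05 with L. acidophilus and 0.38 ± 0.05 with B. clausii (adjusted p = 9.11e-05 and 0.00027), both kept under every alternative run. The late minus early difference, 0.25 ± 0.07 (adjusted p = 0.0256), was 0.04 without the 1 h arrays and was not called without 1 of the 1, 2 or 4 h arrays of L. acidophilus or the 1, 2 or 6 h arrays of B. clausii (0.19 to 0.28). Nor was this difference called with the processed signals (0.26), an offset of 0 (0.37) or local backgrounds as deposited (0.31). Without the filter or without the bacterium term it was 0.25 and not called either. Without the B. clausii 2 h array the 2 h mean was 0.51 (adjusted p = 0.0508). The probe is dim, with an untreated log2 signal between 6.86 and 7.21, and the scanner's own ratios, which add no offset, were larger, for example 1.26 against 0.75 at 4 h of L. acidophilus.

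Spry2 encodes the relative of Spry1 best known for binding Grb2 and the ubiquitin ligase Cbl. Its bright probe A_52_P368532 gave 0.30, 0.39, 0.78 and 0.33 on the L. acidophilus arrays and 0.28, 0.16, 0.23 and -0.14 on those of B. clausii. The highest value, at 4 h of L. acidophilus, stood apart from the others. The mean with L. acidophilus was 0.45 ± 0.06 (limma adjusted p = 0.000759), kept under every alternative run, and with B. clausii it was 0.13 ± 0.06 (adjusted p = 0.107). The difference between the bacteria, 0.32 ± 0.09, had an interval of 0.12 to 0.51 and an adjusted p of 0.0984, so it did not pass. The 4 h mean of 0.50 ± 0.09 (adjusted p = 0.00365) was 0.35 without the L. acidophilus array (adjusted p = 0.146). The means of 0.29 ± 0.09 at 1 h and 0.27 ± 0.09 at 2 h (adjusted p = 0.0291 and 0.0445) became -0.11 and 0.04 with median centring, or 0.16 and 0.18 relative to all probes. The 1 h call was also lost without the B. clausii array (0.10), and the 2 h call without either array (0.33 and 0.21). Both were lost with the processed signals (0.23 at 1 h and 0.30 at 2 h) and with local backgrounds as deposited (0.14 and 0.21). Of 23 alternatives, 16 kept the 1 h call and 13 the 2 h call. The other Spry2 probe was above background in no untreated and 4 treated channels, and its ratios lay between -0.07 and 0.22. Its mean with L. acidophilus, 0.12 ± 0.04, was called (limma adjusted p = 0.0345). The probe passed the filter only through treated channels, so this call is not independent of the filter.

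Spred1 had 3 probes with different courses. A_51_P119857, the brightest (mm9 chr2:117007850-117007909), gave -0.28, 0.06, -0.26 and 0.23 on the L. acidophilus arrays and -0.41, -0.07, -0.41 and 0.29 on those of B. clausii. It was lower at 1 h, at -0.34 ± 0.06 (limma adjusted p = 0.00301), and at 4 h, at -0.33 ± 0.06 (adjusted p = 0.00508), and higher at 6 h, at 0.26 ± 0.06 (adjusted p = 0.0102). The 6 h value was 0.02 with median centring (0.13 relative to all probes) and 0.08 with the processed signals, neither of them called, and the 1 h value was -0.16 with the processed signals (adjusted p = 0.0785). Leaving out 1 array ended the call at 1 h (-0.31 without B. clausii), at 4 h (-0.37 without L. acidophilus, -0.30 without B. clausii) and at 6 h (0.16 without B. clausii).

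The other Spred1 probes, printed above, went the other way at 6 h. A_52_P637689 gave -0.11, -0.05, -0.19 and -0.46 on the L. acidophilus arrays and -0.02, -0.18, -0.37 and -0.39 on those of B. clausii, below 0 on all 8 arrays. Its mean was -0.28 ± 0.07 at 4 h and -0.42 ± 0.07 at 6 h (limma adjusted p = 0.0149 and 0.00159), and its late minus early difference was -0.26 ± 0.07 (adjusted p = 0.0219). A_51_P422996 gave -0.22, -0.22, -0.32 and -0.57 on the L. acidophilus arrays and 0.21, -0.02, -0.28 and -0.19 on those of B. clausii, with a 6 h mean of -0.38 ± 0.07 (adjusted p = 0.0042). It was above background in 6 of 8 arrays in each channel, and its untreated signal was not steady, going from 6.40 at 1 h to 7.62 at 6 h on the L. acidophilus slide and from 6.13 to 6.84 on the other. These probes had the same sign as each other on 7 of 8 arrays, but the same sign as A_51_P119857 on 5 and 4 arrays.

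Spred2 was lower at 1 h by both of its probes. A_51_P234185 gave -0.42, -0.10, 0.00 and -0.01 on the L. acidophilus arrays and -0.35, -0.12, 0.02 and 0.07 on those of B. clausii, and its 1 h mean was -0.39 ± 0.06 (limma adjusted p = 0.0012). Both 1 h arrays were below the other 6. Its late minus early difference of 0.27 ± 0.06 (adjusted p = 0.0103) was 0.13 without the 1 h arrays, and was not called without the L. acidophilus 4 h array (0.26) or the B. clausii 2 h array (0.25). The processed signals (0.18) and local backgrounds as deposited (0.13) also ended this call, as did leaving out both 6 h arrays (0.26). A_52_P452697, the printed probe, stayed lower at all times, with -0.31, -0.32, -0.42 and -0.36 on the L. acidophilus arrays and -0.35, -0.53, -0.18 and -0.30 on those of B. clausii. Its means at 1, 2, 4 and 6 h, -0.33, -0.42, -0.30 and -0.33 with an SE of 0.08 each, were all called (adjusted p = 0.0106, 0.00492, 0.0204 and 0.00896). It is a dim probe, above background in 7 untreated and 6 treated channels of 8, and the scanner's own ratio was above 0 on 4 arrays, up to 0.82 at 4 h of B. clausii.

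Counted by time over the 17 probes, 6 were called higher and 3 lower at 1 h, where 15.9% and 18% of all tested probes were called in those directions. At 2 h, 3 were higher and 2 lower, against 12.8% and 13.6%. At 4 h, 3 were higher and 6 lower, against 13.5% and 13.7%, and at 6 h again 3 and 6, against 18.5% and 19%. As a mean over the 4 times, 6 probes were higher and 5 lower with L. acidophilus, against 21.1% and 19.9%, and 3 and 5 with B. clausii, against 20.3% and 23.9%. These backgrounds are high, so that a call alone says little about the set. The 6 probes higher with L. acidophilus include Spry2 A_51_P445153 and Dusp16 A_52_P374825. Neither would have passed the filter on untreated signal alone. Dusp16 A_52_P374825 is also among the 6 higher at 1 h. The brightest probes of the 9 genes gave 4 higher and 2 lower at 1 h and 3 higher and 2 lower at 6 h. In a fit of the brightest probes of all genes alone, 35% were called in either direction at 1 h and 38.5% at 6 h.

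**Figure D4:**
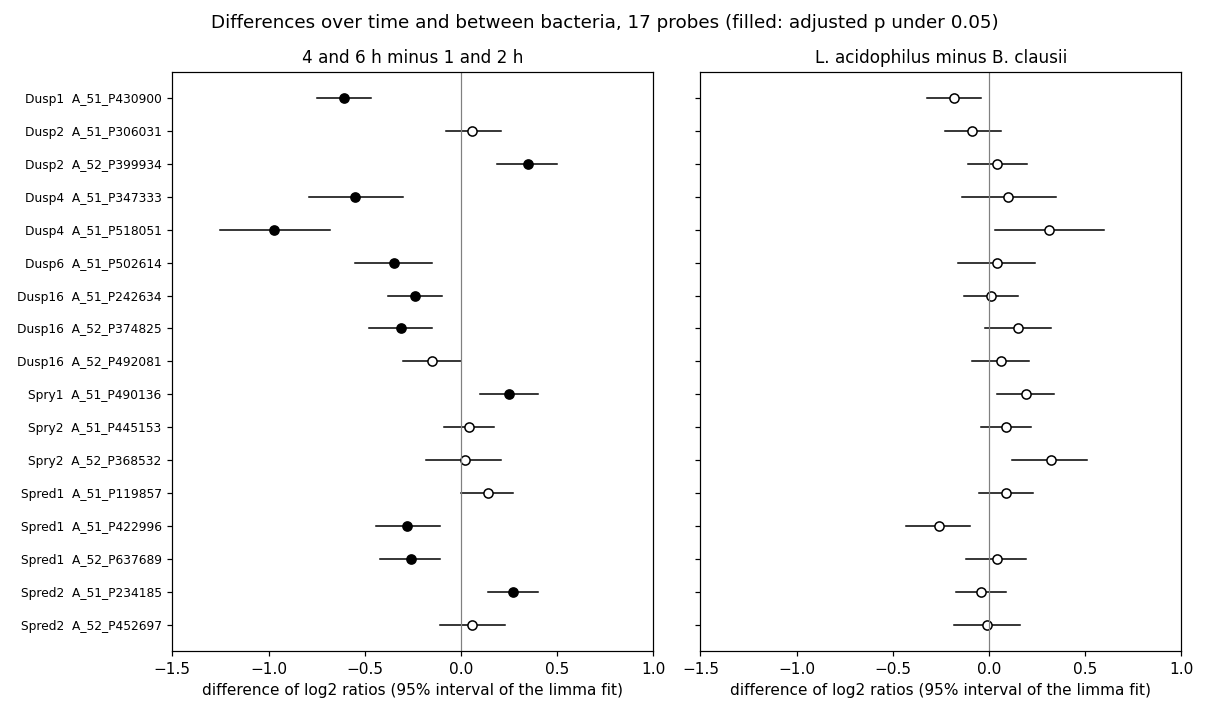
Difference of log2 ratios with its 95% interval from the limma fit for all 17 probes, late minus early arrays on the left and L. acidophilus minus B. clausii on the right, with filled points for adjusted p under 0.05. On the left 11 points are filled, from -0.97 for Dusp4 to 0.35 for Dusp2, and on the right none is.

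The second comparison sets the bacteria against each other over the 4 times. None of the 17 probes was called by limma (5 had an unadjusted p under 0.05), where 1.44% of all tested probes were. The 5 were Spry2 A_52_P368532 at 0.32, Dusp4 A_51_P518051 at 0.31 (interval 0.03 to 0.60), Spry1 at 0.19 (0.04 to 0.34), Dusp1 at -0.18 (-0.32 to -0.04) and Spred1 A_51_P422996 at -0.26 (-0.43 to -0.10). For Dusp2 A_52_P399934 the difference was 0.04, with an interval of -0.11 to 0.20. Likewise that of Dusp16 A_51_P242634 was 0.01 (-0.13 to 0.15), which leaves room for a difference of either sign. The largest gap at a single time was that of Dusp4 at 6 h, -0.54 against -1.40, with 1 array each and no test.

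Median centring in place of loess lowered the median of all tested probes by 0.27 at 1 h, and more on the B. clausii arrays than on the others (down to -0.43 at 1 h of B. clausii). Under that setting 9 member probes differed between the bacteria, as did 31.9% of all tested probes.

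For the lists of other pathway genes, the share of all tested probes called late against early is the one given above, 11.7% higher and 11.3% lower. In either direction 7.01% were called with the processed signals and 20% with median centring. Median centring left the median of all tested probes at -0.43, -0.25, -0.13 and -0.15 at 1, 2, 4 and 6 h of B. clausii. With L. acidophilus these medians were -0.12, -0.06, -0.07 and -0.07. List counts under median centring include that shift of all probes. Among the 14 measured of 15 other MAP kinase phosphatases and atypical Dusp genes, 1 was higher and 3 lower late than early, with a median difference of 0. The 3 were Dusp19 (-0.34 ± 0.06), Styx, a catalytically inactive relative of the phosphatases (-0.34 ± 0.07), and Dusp10, a phosphatase of p38 and JNK (-0.25 ± 0.06), with limma adjusted p of 0.00357, 0.0102 and 0.023. None of the 3 was called with the processed signals, and with median centring the list had 2 higher and 0 lower. Dusp7, an ERK phosphatase related to Dusp6, was lower as a mean over B. clausii, at -0.41 ± 0.07 (adjusted p = 0.00154).

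Of 8 measured of 12 other Ras brakes, 1 was higher and 3 lower late than early. Errfi1, an ERK-induced inhibitor of the EGF receptor, went the way of Dusp1: it gave 0.48, 0.43, -0.14 and 0.01 on the L. acidophilus arrays and 0.71, 0.58, -0.12 and -0.08 on those of B. clausii, a difference of -0.64 ± 0.07 (limma adjusted p = 0.000522). The GTPase-activating protein genes Rasa3 and Rasal2 differed by -0.60 ± 0.13 and 0.34 ± 0.07, neither of them called with the processed signals. Pebp1, a Raf-binding inhibitor, was lower on all 8 arrays, with a mean of -0.49 ± 0.04 with L. acidophilus and -0.38 ± 0.04 with B. clausii (adjusted p = 9.11e-05 and 0.000129).

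In the Ras, Raf and ERK cascade, with 18 of 18 genes measured, 4 were higher and 4 lower late than early by limma, with median centring 7 were higher and 0 lower, and with the processed signals 0 and 0. The adaptor gene Grb2 was lower with both bacteria, at -0.35 ± 0.04 and -0.44 ± 0.04. In the p38 and JNK cascade 6 of 19 genes were higher late and 2 lower, with a median of 0.16. The kinase genes Map3k2 (0.33 ± 0.06) and Map2k3 (0.29 ± 0.06) were among the 6, and with the processed signals the list had 3 higher. Map2k7, which encodes a JNK kinase, was the only gene of these lists called between the bacteria, at -0.29 ± 0.06 (adjusted p = 0.049, and 0.26 with median centring). Of 9 kinases downstream of MAP kinases, 4 were higher late and none lower, Rps6ka4 at 0.27 ± 0.06 among them, and with the processed signals 1 was.

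Among 17 measured of 20 transcripts known to be induced by ERK, 4 were higher and 2 lower late, with a median of 0, and with the processed signals 1 and 1. Phlda1 (-0.60 ± 0.10) and Ier2 (-0.49 ± 0.07), like Dusp1, had higher values early than late, with limma adjusted p of 0.00378 and 0.0022 (that of Phlda1 was 0.0636 with the processed signals). Fos, a subunit of AP-1, had the opposite course, at -0.46, -0.67, 0.27 and 0.21 on the L. acidophilus arrays and -0.46, -0.59, 0.14 and 0.31 on the B. clausii arrays (0.78 ± 0.06, adjusted p = 0.000232).

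For the 3 members with the widest spread over the 8 arrays, Dusp4 (SD 0.631), Dusp1 (SD 0.348) and Dusp6 (SD 0.336), the most similar of 12937 other genes were listed by Pearson r over the 8 arrays. These r values describe arrays that share probes, slides and times, and were picked as the highest. Dusp4 was closest to Kpna3 (0.987), Ifrd1 (0.982), Rprd1a (0.981), Tars (0.98) and Cryzl1 (0.977). Dusp1 was closest to Tmem171 (0.989), Galnt11 (0.984), Morc2a (0.983), Cers6 (0.976) and the chemokine gene Ccl4 (0.96), whose ratios were much larger: 1.26, 0.88, -0.84 and -0.64 with L. acidophilus. Dusp6 was closest to Zfp36l2 (0.94), Nav1 (0.93), Gnpnat1 (0.918), Slc35c1 (0.91) and Rdh5 (0.907), each with its lowest value at 4 h with either bacterium.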

How the data were processed

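RNA was hybridised as treated (Cy5) against untreated (Cy3) to 8 two-colour Agilent arrays. Per the file headers, the authors deposited spot intensity values, 0 or 1 flags and log10 ratios made by Feature Extraction 10.7.3.1 (the submitters' processing notes give 10.5.1.1), and the series matrix repeats those log10 ratios. Probe coordinates are those of the files (mm9), and exon positions were not looked up. Ratios were recomputed in limma 3.58.1 (R 4.3.3): normexp with offset 50, loess within arrays, flagged spots left out, and outlying local backgrounds (over 3 times the median of the array) set to that median. The filter kept probes with 2 or more arrays above background in either channel. Bacterium and time were fitted to 8 arrays with 3 residual degrees of freedom, and p-values were adjusted (Benjamini-Hochberg) over 21274 probes. Named pathway genes are at most the 3 largest called changes per list and contrast. Members and lists were chosen with earlier results of these data known. The number of arrays limits the precision. The values of 1 gene that met this naming rule are not reported here.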

Additional observations from a re-analysis of the deposited data

How the results depend on the processing

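Of the 36 called contrasts of the members' brightest probes, 7 were kept under every alternative run: Spry1 at 4 and 6 h and over both bacteria, Dusp2 and Dusp4 at 6 h, and Spry2 over L. acidophilus. Counts of called member probes moved by over 1.5 times as follows. With local backgrounds as deposited they were 0 at 1 h, 0 at 2 h, 3 for late minus early, 5 for L. acidophilus and 5 for B. clausii, while 914, 799, 1477, 2696 and 4687 of all tested probes were called. With the processed signals or the series matrix values they were 5 at 1 h and 2 for late minus early. The share of all tested probes called was then 29.2% or 29% at 1 h and 7.01% for late minus early. Without background correction the 2 h count was 3 (27.1% of all tested probes). With an offset of 0 late minus early and B. clausii gave 5 each (13.5% and 38.6% of all tested probes). Median centring gave 8 at 2 h (37.1% of all tested probes) and 9 between the bacteria (31.9%). It turned the sign at 1 h of Dusp16 (-0.24), Spry2 (-0.11), Dusp2 (-0.26) and Dusp6 (-0.33), and over B. clausii that of Dusp16 (-0.34), Spry2 (-0.21), Dusp2 (-0.17) and Dusp6 (-0.44). Keeping only probes above background in every channel of every array, which leaves 12 member probes, gave 7 for L. acidophilus (46.8% of all probes so kept). Taking the brightest probe per gene, with 9 member probes, gave 3 at 2 h, 5 at 4 h, 5 at 6 h, 7 late minus early, and 5 for each bacterium. Of the brightest probes of all genes, 27%, 27.7%, 38.5% and 24.6% were called in those contrasts, 42.2% for L. acidophilus and 44.2% for B. clausii. The time term pairs the arrays of both bacteria at a time. Without it the counts were 4 for L. acidophilus and 2 for B. clausii (20.5% and 24.1% of all tested probes). Leaving out an array or a time gave 3 to 10 at 1 h, 1 to 7 at 2 h, 1 to 11 at 4 h, 6 to 11 at 6 h, 4 to 10 late minus early, 7 to 12 for L. acidophilus, 4 to 9 for B. clausii and 0 to 0 between them. At each single time the lowest count came from leaving out an array of that time, where fewer of all tested probes were called as well. With both arrays of a time kept, 29.5% to 38.1% of all tested probes were called at 1 h and 21.8% to 31% at 2 h. These shares were 22.5% to 31.5% at 4 h and 33% to 38.9% at 6 h. For late minus early, 7.02% to 25.4% of all tested probes were called. For L. acidophilus this was 21.8% to 45.4%, for B. clausii 27.2% to 48% and between them 0% to 0.388%. Such omissions gave -0.52 to 0.04 for Dusp16 late minus early and -0.51 to 0.08 for Dusp4 over B. clausii, the upper ends without 6 h. The settings for pathway lists and for probes other than the brightest were chosen after seeing the data. The causes were not tested beyond the smaller number of probes or arrays. Dim probes (1 Spry2 and a pair of Dusp16 probes) lay near background, where the offset shrinks ratios.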
